A study of Homo sapiens with 12 samples.

Results

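In ChIP-Seq most sequenced fragments do not come from a bound site but from the rest of the chromatin, and the number of such fragments follows, among other things, how many copies of a stretch of DNA a cell holds. Control precipitations with unspecific IgG collect this background alone, so counting it in large windows along the chromosomes gives a coarse trace of copy number that is mixed with the openness of chromatin, the ease of mapping and the depth of the library. U2OS is an osteosarcoma line known for a heavily rearranged genome, and hTERT-RPE1 is a retinal pigment epithelial line, immortalized with telomerase, that is near diploid and known for an extra copy of part of the long arm of chromosome 10.

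The background regions described here are the listed ChIP-Seq regions of NPAT and CASP8AP2 whose ChIP and IgG counts were close to each other, with (ChIP sequences + 1) / (IgG sequences + 1) from 0.5 to 3. Of the 1192363 regions in the NPAT and CASP8AP2 lists of both lines, 849297 met this rule, and 837049 of them lay on the 22 autosomes. NPAT is the coactivator that links cyclin E-Cdk2 activity to histone gene transcription, and CASP8AP2 is a partner of NPAT at the histone genes. The study precipitated both, together with HINFP and E2F1, from formaldehyde-fixed cells of the 2 lines, and each combination of factor and line is a single library. A rabbit IgG library was the control for NPAT, CASP8AP2 and E2F1 and a goat IgG library for HINFP, and these IgG libraries entered only through the IgG counts that the lists give for each region. There are no replicate libraries, so the differences below have no replicate error to be read against and carry no p-value. Intervals are exact (Clopper-Pearson) 95% intervals of counts and cover counting error only, since reads without molecular identifiers are not independent molecules.

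The NPAT list held 191280 autosomal background regions in hTERT-RPE1 and 338764 in U2OS cells, with 1253460 and 2366451 IgG sequences. The CASP8AP2 list held 113018 and 193987, with 794330 and 1474909 IgG sequences. Background regions made up 66.0% of the NPAT list and 70.6% of the CASP8AP2 list in hTERT-RPE1 and 71.3% and 77.8% in U2OS cells. The regions themselves were alike in the 2 lines. Their median length was 283 to 303 bp, their median IgG count was 6 in each of the 4 lists, and the mean IgG density over the covered sequence was 21.5 (hTERT-RPE1) and 21.4 (U2OS) sequences per kb for NPAT and 22.2 and 22.5 for CASP8AP2. Between 2 and 14 of the background regions of a list passed the study's threshold for a significant peak. At the upper border of the rule, 15045 NPAT regions of hTERT-RPE1 cells had a ratio of exactly 3 and 18098 had one above 3 and up to 3.5. In U2OS cells these numbers were 23795 and 29472.

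Few of these regions lay at the same place in both lines. Among NPAT background regions, 8.82% of those of U2OS cells and 15.4% of those of hTERT-RPE1 cells overlapped a background region of the other line by at least 1 bp. For CASP8AP2 the shares were 7.71% and 13.1%. Over all listed autosomal regions, at any ratio of ChIP to IgG, they were 11.1% and 17.9% for NPAT and 9.01% and 13.9% for CASP8AP2. The low overlap was thus also seen in the whole lists, of which background regions make up the larger part. Overlap of the regions outside the background rule was not counted by itself. Within a line, where the 2 factors share the IgG library, 8.50% of NPAT and 14.3% of CASP8AP2 background regions overlapped in hTERT-RPE1 and 17.1% and 29.2% in U2OS cells. The lists were therefore compared over 5 Mb bins (NCBI36 coordinates) and not region by region.

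Within each line, the background was spread far less evenly over the genome of U2OS cells than over that of hTERT-RPE1 cells. Over the 533 autosomal bins with a mean of at least 100 regions in the 4 lists, out of 565 with any region, the SD of the log2 region number was 0.55 in hTERT-RPE1 and 1.08 in U2OS cells for NPAT. It was 0.70 and 1.33 for CASP8AP2. The E2F1 lists (0.66 and 1.504) and the HINFP lists (0.65 and 1.68), which were not used to choose anything, had the same order. Between 0.75 and 1.33 times the list's mean number of regions was found in 63.6% of bins in hTERT-RPE1 and 34.3% in U2OS cells for NPAT, and in 49.0% and 22.9% for CASP8AP2. All 14 NPAT bins of hTERT-RPE1 cells above 2 times the mean lay on chromosome 10, as did 15 of the 16 CASP8AP2 bins. In U2OS cells 48 NPAT bins and 53 CASP8AP2 bins exceeded 2 times the mean, and 2 bins of each list lay on chromosome 10.

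**Figure D1:**
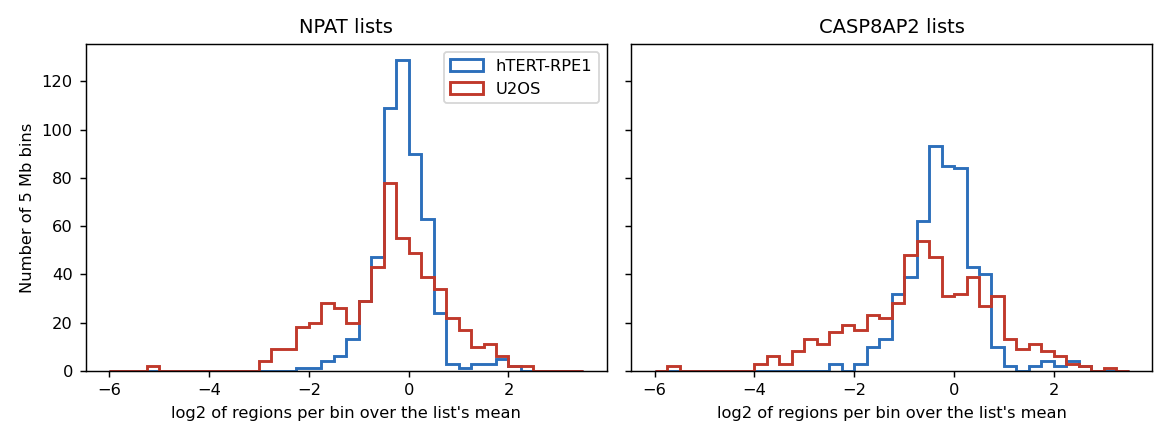
Number of 5 Mb bins (y axis) against the log2 of the number of background regions in the bin over the mean of its list (x axis), for hTERT-RPE1 (blue) and U2OS cells (red), in the NPAT lists (left) and the CASP8AP2 lists (right). The hTERT-RPE1 bins form 1 narrow peak near the mean with a small group far to the right, the chromosome 10 bins, while the U2OS bins extend in both directions, with SDs of 1.08 against 0.55 for NPAT.

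The pattern along the chromosomes was shared by the factors of a line and much less by the lines. Over the 533 bins, the region numbers of NPAT and CASP8AP2 had a Spearman correlation of 0.95 in hTERT-RPE1 and 0.99 in U2OS cells. Between the lines it was 0.39 for NPAT and 0.42 for CASP8AP2. HINFP, which has the goat IgG as its control, correlated with NPAT at 0.72 in hTERT-RPE1 and 0.94 in U2OS cells. These correlations describe bins of the same libraries, which share depth and mappability, and the IgG library as well for the 3 factors with rabbit IgG.

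Setting the lines against each other, a bin was called higher in U2OS cells when its share of regions and its share of IgG sequences were each at least 1.5 times those of hTERT-RPE1 cells in both the NPAT and the CASP8AP2 list, and lower when all 4 were at most 0.667 times. Of the 533 bins, 106 (19.9%) were higher and 155 (29.1%) were lower. The higher bins lay on 22 chromosomes and the lower bins on 20. By single measures, the ratio of NPAT region shares ran from 0.0289 to 5.18 with a median of 0.901, and that of NPAT IgG shares from 0.0185 to 8.52 with a median of 0.795. For CASP8AP2 the regions ran from 0.0245 to 7.24 and the IgG shares from 0.0167 to 12.2. The IgG sequences per covered kb of NPAT regions moved less, from 0.548 to 1.39. A share is relative to the whole autosomal genome of its own list, so a few very dense stretches lower the shares of all other bins. With each list scaled to its median bin, 137 bins were higher and 140 lower.

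The lists that took no part in these calls gave the same side in all but 7 of the called bins. In the E2F1 lists, which use the same rabbit IgG libraries, the IgG share was higher in U2OS cells in 106 of the 106 higher bins and lower in 155 of the 155 lower bins. In the HINFP lists, with the goat IgG libraries, this held in 100 of 106 and 154 of 155 bins, of which 82 and 154 were also past 1.5-fold.

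The mean of the 4 log2 ratios was not spread smoothly over the bins. Counted in steps of 0.25, 146 of 533 bins lay from -0.5 to 0, and the number of bins per step fell to 12 from -2 to -1.75 before it rose again to 26 and 29 in the next 2 lower steps. In all, 70 bins lay from -2.75 to -2, and 62 lay from 0.5 to 1. These ranges were chosen after the values had been seen.

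**Figure D2:**
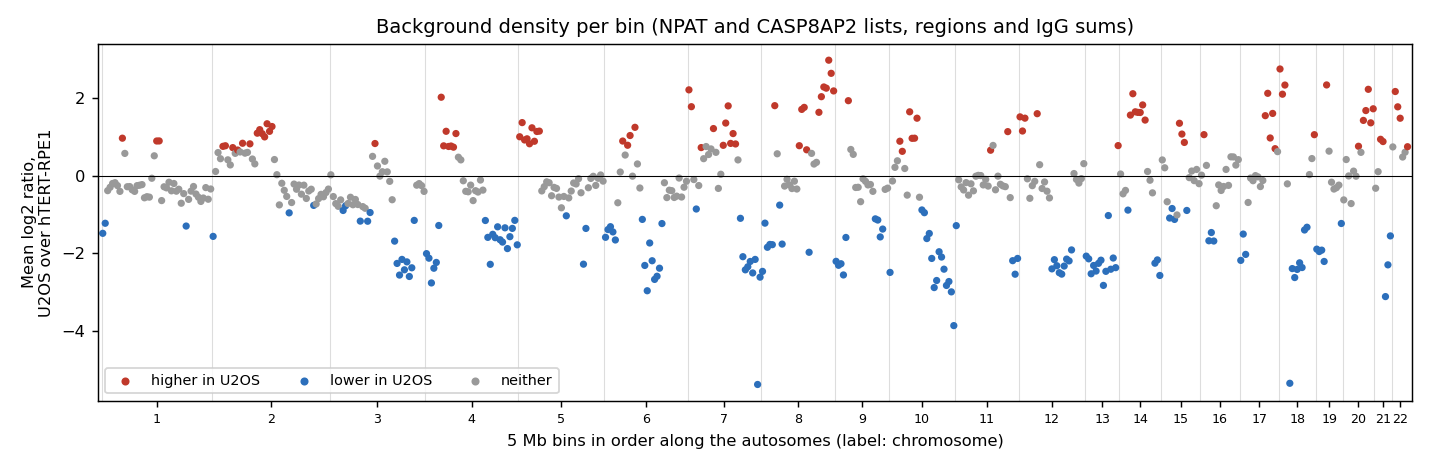
Mean log2 ratio of U2OS over hTERT-RPE1 cells (y axis, mean of region and IgG shares in the NPAT and CASP8AP2 lists) for 533 bins of 5 Mb in order along the 22 autosomes (x axis). Red points are the 106 bins called higher in U2OS cells, blue points the 155 called lower and grey points the rest, and called bins stand in long runs, with the lowest blue points on chromosomes 7 and 18.

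Called bins stood in runs. Neighbouring bins called in the same direction formed 14 runs of at least 3 higher bins, which held 73 of the 106 higher bins, and 21 runs of at least 3 lower bins, which held 125 of the 155 lower bins. A bin left out for too few regions also ended a run, so run lengths depend on that filter. The longest lower run covered 14 bins of chromosome 10, from 65 to 135 Mb, and the next covered 12 bins of chromosome 4, from 135 to 195 Mb. Lower runs of 9 bins lay on chromosome 3 (135 to 180 Mb), chromosome 6 (75 to 120 Mb) and chromosome 12 (65 to 110 Mb). Lower runs of 7 bins lay on chromosome 7 (110 to 145 Mb), chromosome 13 (20 to 55 Mb) and chromosome 18 (30 to 65 Mb). The chromosome 13 run was cut by the filter, and a further lower run of this chromosome covered 90 to 110 Mb. Between these runs, from 55 to 90 Mb, where bins were left out, the NPAT region ratio was 0.242 and the IgG ratio 0.174. The longest higher run covered the first 45 Mb of chromosome 5, with 9 bins. Higher runs of 7 bins lay at 95 to 130 Mb of chromosome 2, 30 to 65 Mb of chromosome 4, 115 to 150 Mb of chromosome 8 and 40 to 75 Mb of chromosome 14. A higher run of 6 bins lay at 75 to 105 Mb of chromosome 7.

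Of the 8 lower runs named above, 7 lay outside chromosome 10. In these the NPAT lists held from 1123 (chromosome 13) to 2664 (chromosome 4) regions in U2OS cells against 2256 (chromosome 18) to 3339 (chromosome 4) in hTERT-RPE1 cells, from lists of 338764 and 191280. Relative to the mean of each list, the hTERT-RPE1 density in these 7 runs was 0.705 to 0.909 and the U2OS density was 0.221 to 0.349. The NPAT IgG ratio lay within 0.198 (chromosome 13) to 0.244 (chromosome 3) in 6 of these runs, while the chromosome 4 run stood apart with 0.338. The IgG sequences per covered kb were 0.809 to 0.850 times those of hTERT-RPE1 cells in the 7 runs.

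Among the 6 longest higher runs, the end of chromosome 8 was the farthest out. Between 115 and 150 Mb the NPAT list held 2657 regions in hTERT-RPE1 and 17020 in U2OS cells, or 1.06 and 3.83 times the mean density, with an IgG ratio of 5.61. The ratio of CASP8AP2 IgG shares was 6.89, that of E2F1 9.11 and that of HINFP 7.32. Among these 6, the run of chromosome 14 followed, with 2476 and 11314 NPAT regions and an IgG ratio of 3.25. The other 4 of the 6 lay close together, with NPAT IgG ratios of 2.10 (chromosome 5), 2.13 (chromosome 7), 2.21 (chromosome 2) and 2.24 (chromosome 4). In these 4 runs the U2OS density was 1.24 to 1.77 times the mean and the hTERT-RPE1 density 0.620 to 0.877 times. Relative to the means, both lines thus enter the ratio there, while at the end of chromosome 8 hTERT-RPE1 cells were at their mean. A density below the mean was common in hTERT-RPE1 cells, whose median NPAT bin was at 0.914 times the mean. The 7 lower runs outside chromosome 10, at 0.705 to 0.909, were also below it.

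On chromosome 10 the density of hTERT-RPE1 cells itself changed within the chromosome. In hTERT-RPE1 cells the 12 NPAT bins before 60 Mb lay between 0.401 and 1.14 times the list's mean, with a median of 0.762. The 15 bins from 60 Mb on lay between 1.995 and 4.36 times the mean, with a median of 3.34, so the 2 sets of bins did not overlap. The median rose by 4.39-fold in the NPAT list, 5.93-fold in the CASP8AP2 list, 5.51-fold in the E2F1 list and 5.14-fold in the HINFP list. Each of the 15 bins exceeded the 95th percentile of the bins of the other chromosomes in all 4 lists of hTERT-RPE1 cells. In U2OS cells the same bins had a median of 0.903 in the NPAT list, against 1.15 before 60 Mb, a ratio of 0.788.

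The step on chromosome 10 fell at 62.2 Mb in all 4 lists when regions were counted in steps of 100 kb. In the 15 Mb around it, the NPAT list of hTERT-RPE1 cells held 330 regions before and 1277 after the step, and that of U2OS cells 1223 and 1509. The ratio of NPAT shares went from 2.09 to 0.67. The HINFP lists, with 76 and 394 regions in hTERT-RPE1 cells and 100 and 113 in U2OS cells, gave the same position with the goat IgG. From 60 Mb to the end of the chromosome, the NPAT lists held 148682 IgG sequences in hTERT-RPE1 and 72859 in U2OS cells, a ratio of shares of 0.260, and the CASP8AP2 lists gave 0.193. Where a region was listed in both lines, the IgG count per kb could be compared at the same place, and over 3616 such NPAT regions after the step the ratio, relative to all such regions, was 0.711 (0.699 to 0.723). Over 990 regions before the step it was 1.202 (1.16 to 1.245). The difference at the same places was thus smaller than the difference in shares, in the same direction.

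**Figure D3:**
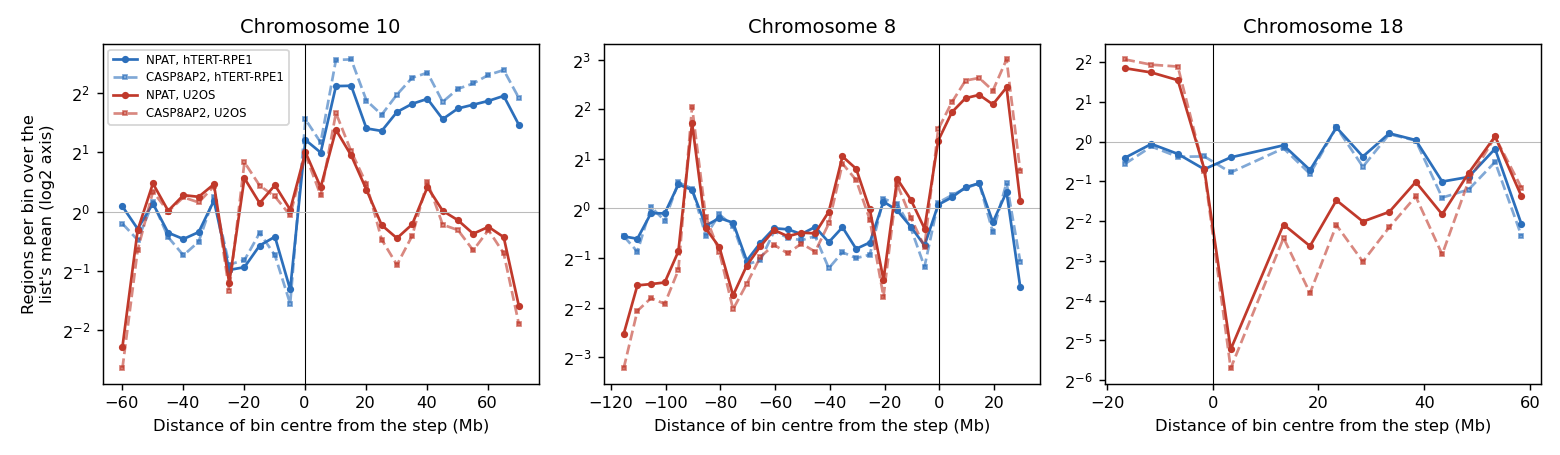
Number of background regions per 5 Mb bin over the mean of the list (y axis, log2 scale) against the distance of the bin centre from the step (x axis, Mb; vertical line at 0) on chromosomes 10, 8 and 18, for NPAT (solid) and CASP8AP2 (dashed) in hTERT-RPE1 (blue) and U2OS cells (red). On chromosome 10 the blue lines rise across the step, with a median NPAT density of 0.762 before and 3.34 after, while on chromosomes 8 and 18 the red lines change across the step and the blue lines do so much less.

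Some other runs ended as sharply. On chromosome 4 the NPAT, CASP8AP2, E2F1 and HINFP lists all placed a step at 29.8 Mb, where the NPAT ratio went from 0.27 to 2.64. The NPAT list of U2OS cells held 197 regions before and 1601 after this step within 15 Mb, against 412 and 342 in hTERT-RPE1 cells. On chromosome 3 the lower run began at 135.4 Mb in the NPAT and CASP8AP2 lists, 135.5 Mb in the E2F1 list and 135.3 Mb in the HINFP list. It ended at 178.4, 178.4, 178.3 and 180.4 Mb in the same order. On chromosome 12 the lower run ended between 109.2 and 109.8 Mb in the 4 lists, and on chromosome 14 the higher run began between 41.7 and 42.1 Mb. On chromosome 8 the step before the higher run lay at 117.4 to 118.0 Mb, with NPAT ratios of 1.34 and 3.43 on its sides. Of the 25 edges of the named runs, 12 were placed within 0.5 Mb of each other by the 3 lists with rabbit IgG, and 7 of these within 0.1 Mb. Not all of these 12 steps were the end of a run. On chromosome 2 the NPAT ratio went from 4.20 to 1.81 at 88.3 Mb, high on both sides. On chromosome 7 it went from 0.30 to 0.03 at 146.3 Mb, low on both sides. The other edges were placed differently by the lists, by up to 10.6 Mb on chromosome 13 at 55 Mb, where low bins stand on both sides.

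The bins farthest from equal shares were on chromosomes 8, 18, 19, 7, 10 and 21. The highest bin was 135 to 140 Mb of chromosome 8, with a mean log2 ratio of 2.98. There the NPAT list held 296 regions in hTERT-RPE1 and 2718 in U2OS cells, a ratio of shares of 5.18 (4.597 to 5.87). The IgG sequences were 1645 and 26462, a ratio of 8.52 (8.11 to 8.96). Next to it, 140 to 145 Mb had 452 and 3446 NPAT regions. The bins 0 to 5 Mb and 10 to 15 Mb of chromosome 18 had 271 and 2289, and 290 and 1858, NPAT regions. The bin 30 to 35 Mb of chromosome 19 had 131 and 939, and held no NPAT or CASP8AP2 region before 32.4 Mb. In this last bin the HINFP lists gave an IgG ratio of 1.43 beside a region ratio of 5.73.

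At the low end, 2 bins held almost no background regions in U2OS cells. In 150 to 155 Mb of chromosome 7 the NPAT list held 332 regions in hTERT-RPE1 and 17 in U2OS cells, a ratio of 0.0289 (0.0166 to 0.0470), and the CASP8AP2 list 190 and 8. In 20 to 25 Mb of chromosome 18 the NPAT lists held 273 and 17 regions, a ratio of 0.0352 (0.0202 to 0.0573), and the CASP8AP2 lists 124 and 7. Both stretches were still sparse in U2OS cells when regions at any ratio of ChIP to IgG were counted. The gap in region numbers between the lines was then smaller than under the background rule. From 20 to 27 Mb of chromosome 18, each Mb of the NPAT list of U2OS cells held 14 to 19 regions with 17 to 24 IgG sequences, and that of hTERT-RPE1 cells 57 to 96 regions with 243 to 426 IgG sequences. From 147 to 155 Mb of chromosome 7, each Mb held 8 to 17 regions with 11 to 54 IgG sequences in U2OS cells and 47 to 166 regions with 173 to 904 in hTERT-RPE1 cells. The remaining 3 lowest bins were 130 to 135 and 125 to 130 Mb of chromosome 10, with 989 and 1390 NPAT regions in hTERT-RPE1 cells against 209 and 471 in U2OS cells, and 35 to 40 Mb of chromosome 21, with 487 against 134.

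The stretch of chromosome 18 that was sparse in U2OS cells began at a step. It was placed at 19.1, 18.9 and 18.7 Mb by the 3 lists with rabbit IgG and at 15.2 Mb by the HINFP list. Before the step, within the 15 Mb counted, the NPAT lists held 648 regions in hTERT-RPE1 and 3253 in U2OS cells, a ratio of 2.83. After it they held 213 and 17, a ratio of 0.05. On chromosome 7 the ratio fell at 146.3 Mb, from 0.30 (501 and 266 regions) to 0.03 (408 and 20 regions).

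Summed over chromosome arms, taken as the sides of the longest stretch of a chromosome without a listed region, the short arm of chromosome 18 had the highest ratio. Its NPAT regions held 5458 IgG sequences in hTERT-RPE1 and 59004 in U2OS cells, a ratio of shares of 5.73 (5.57 to 5.89), over 263 and 2319 kb of covered sequence. The long arm of chromosome 8 followed with 3.21 (3.18 to 3.25), then 20q with 2.72, 22q with 2.57 and chromosome 17 after 42.1 Mb with 2.15. At the other end, 19p had a ratio of 0.218 (0.210 to 0.225), with 10874 and 4466 IgG sequences. It was followed by 13q with 0.304, 10q with 0.337, chromosome 6 before 28.6 Mb with 0.390 and 18q with 0.426. The counting intervals of these neighbours did not overlap, but counting error is a small part of the spread among lists. The SD of the log2 ratio over the lists of the 4 factors had a median of 0.180 over the 39 arms and ranged from 0.0166 to 0.698. It is a spread over libraries with different antibodies and not over replicates.

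The ratio of 18p was 5.73, 6.92, 8.56 and 5.29 for NPAT, CASP8AP2, E2F1 and HINFP. In the HINFP list its interval (5.02 to 5.57) overlapped that of 22q (4.69 to 5.06), so the 2 arms did not stand apart there. The order of 20q and 22q was not kept, since 20q had 2.72, 2.89, 2.97 and 3.01 and 22q had 2.57, 3.03, 3.27 and 4.87. The low ratios of 13q were close to each other, from 0.218 to 0.304. Chromosome 6 before 28.6 Mb had 0.332 to 0.390 with the rabbit IgG and 0.914 with the goat IgG, the widest gap between the 2 controls among the named arms. This gap came from the bin at 25 to 30 Mb, which held 2042 of the 2287 HINFP IgG sequences of U2OS cells on this side. From 0 to 25 Mb the IgG ratio was 0.161 for HINFP and 0.363 for NPAT. The HINFP region ratio of the whole side was 0.491. Over all 39 arms, 12 were above 1 in all 4 lists, 20 were below 1 in all 4 and 7 were mixed. The sides of chromosomes 6 and 17 are not their arms, because the longest stretch without a region in the lists used here lay away from the centromere, from 28.6 to 32.7 Mb on chromosome 6 and at 41.7 to 42.1 Mb on chromosome 17.

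**Figure D4:**
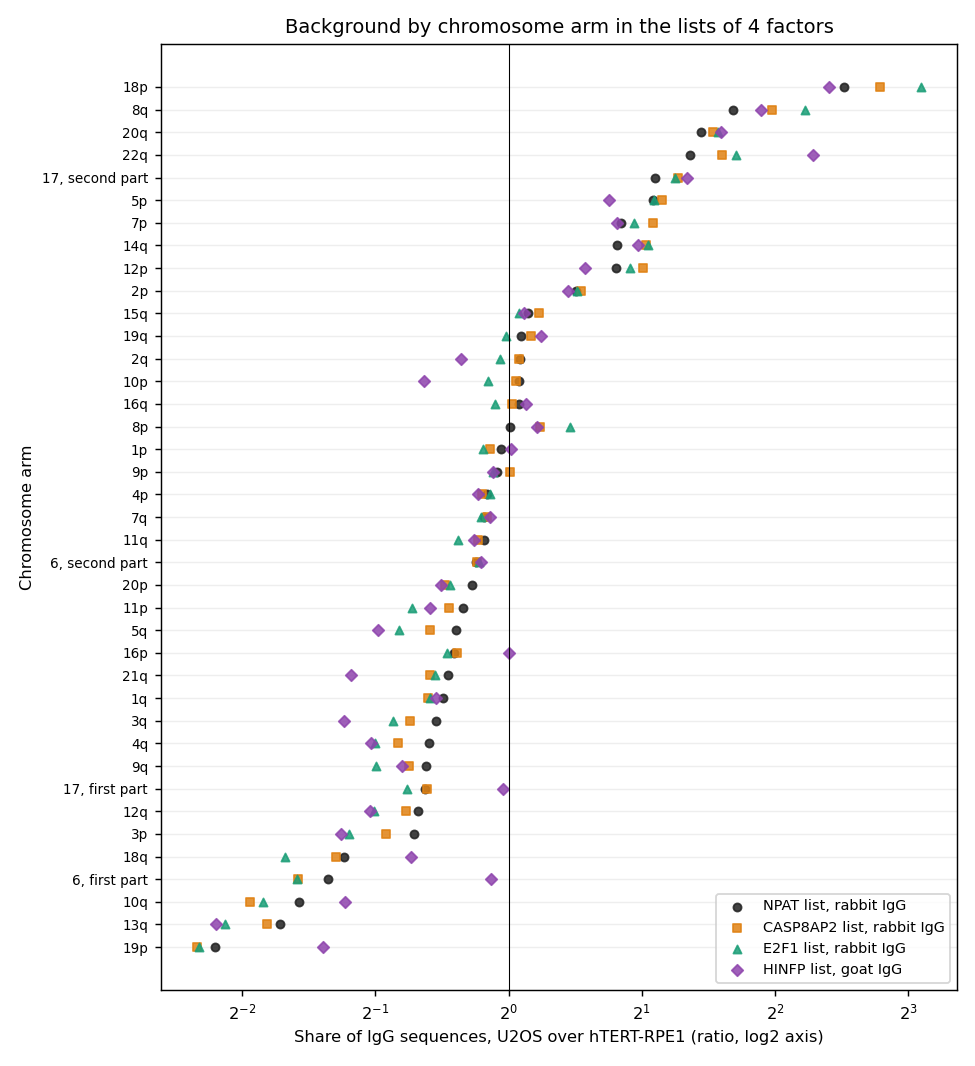
Share of IgG sequences in background regions, U2OS over hTERT-RPE1 cells (x axis, ratio on a log2 scale), for 39 chromosome arms (y axis) in the lists of NPAT (circles), CASP8AP2 (squares), E2F1 (triangles) and HINFP (diamonds, goat IgG). For chromosomes 6 and 17 the labels name the sides of the longest stretch without a region. The 4 lists lie close together for most arms, with 18p at 5.29 to 8.56. On the first side of chromosome 6 the HINFP point lies apart at 0.914, with 2042 of its 2287 U2OS sequences in the bin from 25 to 30 Mb.

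The size of a ratio depended strongly on the measure. Over the 39 arms, the ratio of NPAT IgG shares ran from 0.218 to 5.73, that of region shares from 0.307 to 3.91 and that of IgG sequences per covered kb from 0.818 to 1.23. In NPAT regions of any ChIP to IgG ratio that overlapped 1 to 1 between the lines, 46659 pairs in all, the ratio of IgG sequences per kb ran from 0.657 (19p) to 1.47 (18p). This measure counts both lines at the same places. It ordered the arms like the IgG shares (Pearson r of 0.948 and Spearman rho of 0.941 over 39 arms, in which the same IgG libraries are counted). On the log2 scale, the IgG shares changed by 3.75, the region shares by 2.80 and the IgG sequences per covered kb by 0.564 for each unit of the same-place ratio. The region lists start at a height of 8 reads at the summit, so that the number of regions need not be proportional to the number of reads. The same-place ratio covers only places where both lines reached this height, and leaves out places listed in a single line. How far this selection moves the same-place ratio was not tested. None of these ratios is a count of DNA copies.

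**Figure D5:**
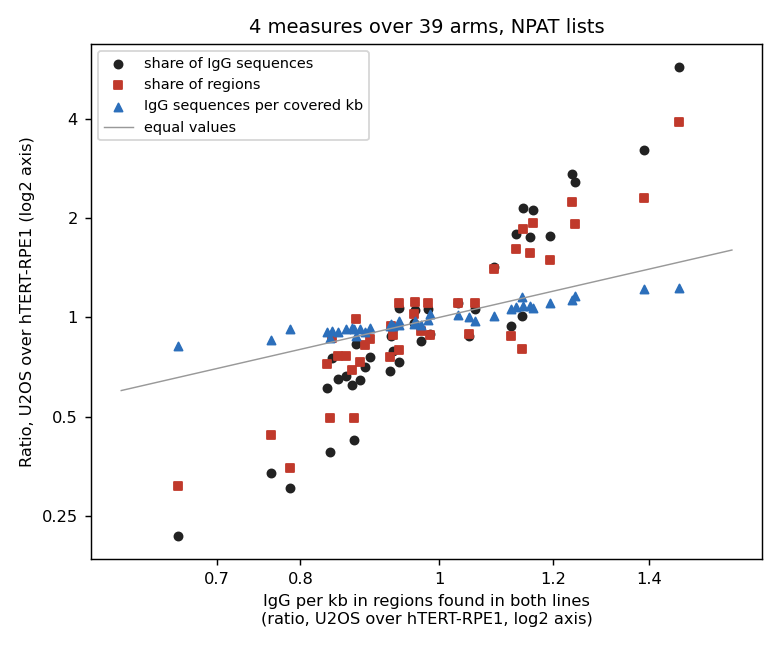
Ratio of U2OS over hTERT-RPE1 cells by 3 measures (y axis, log2 scale) against the ratio of IgG sequences per kb in regions found in both lines (x axis, log2 scale), for 39 chromosome arms in the NPAT lists. The grey line marks equal values; IgG shares (black) and region shares (red) rise far more steeply than the line, reaching 5.73 and 3.91, and the IgG sequences per covered kb (blue) rise less steeply, reaching 1.23.

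At the same places, the 14 named runs kept their sides of 1 in the NPAT, CASP8AP2 and E2F1 lists. In the HINFP lists 12 of 13 did, and the chromosome 4 run from 30 to 65 Mb had 0.843 (0.778 to 0.913, 51 pairs). In the NPAT lists the end of chromosome 8 had a ratio of 1.502 (1.47 to 1.54, 1761 NPAT pairs), the chromosome 14 run 1.32 and the runs of chromosomes 2, 4, 5 and 7 from 1.15 to 1.23. The 7 lower runs outside chromosome 10 had ratios from 0.638 (chromosome 13, 202 pairs) to 0.746 (chromosome 7, 206 pairs). In the nearly empty bin of chromosome 18 the 11 pairs gave 0.297 (0.156 to 0.531), and in that of chromosome 7 the 15 pairs gave 0.383 (0.272 to 0.530). The 5 CASP8AP2 pairs of this chromosome 7 bin gave 0.985 (0.678 to 1.41), which includes equal density.

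Other features of the listed regions moved with the class of the bin, in U2OS cells far more than in hTERT-RPE1 cells. The share of all listed NPAT regions that fell into the background rule was 81.7% in the higher bins, 68.9% in the bins of neither class and 57.3% in the lower bins of U2OS cells, and 64.6%, 65.5% and 68.8% in hTERT-RPE1 cells. The mean IgG count of a background region was 8.24, 6.30 and 5.38 in U2OS cells and 6.20, 6.47 and 6.79 in hTERT-RPE1 cells. The classes were made from these same regions, so these values are a description. The background rule itself holds a larger part of the list where IgG counts are high, and its effect on the ratios was not separated from the density of reads. Without the rule, with all listed regions counted, 87 bins were higher and 150 lower.

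The study's significant peaks (p-value under 0.00001 and fold change above 2) are listed in the same files and, but for the 2 to 14 per list given above, lie outside the background rule. In U2OS cells 31.2% of the significant NPAT peaks in the 533 bins lay in the higher bins (150 of 481, 27.2% to 35.5%, Wilson interval) and 14.3% in the lower bins (69, 11.5% to 17.8%), while these classes made up 19.9% and 29.1% of the bins. In hTERT-RPE1 cells the shares were 19.0% (137 of 720) and 28.5% (205). For CASP8AP2, 28.1% (59 of 210) and 13.3% (28) of the U2OS peaks and 20.5% and 23.1% of the hTERT-RPE1 peaks lay in the higher and lower bins. The number of significant peaks per bin class thus differed between the lines on the same side as the background, and whether this follows the number of reads or the number of bound sites was not tested. Regions listed at any ratio were also unevenly spread over the classes. In U2OS cells the higher, neither and lower bins held 166193, 232892 and 70902 listed NPAT regions, against 150, 262 and 69 peaks. For CASP8AP2 they held 101159, 116593 and 29656, against 59, 123 and 28 peaks. Set against the listed regions, the U2OS peaks were not in excess in the higher bins.

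The bin with the histone gene stretch of chromosome 6, from 25 to 30 Mb, which holds the sites that NPAT and CASP8AP2 are studied for, was called neither higher nor lower. It is partly empty, since the lists used here hold no region from 28.6 to 32.7 Mb. It held 289 NPAT background regions in hTERT-RPE1 and 337 in U2OS cells, a ratio of shares of 0.658 (0.561 to 0.773), and its IgG ratio was 0.532. For CASP8AP2 the ratios were 0.687 and 0.601. The HINFP lists were on the other side, with 1.49 for regions and 2.08 for IgG sequences. At the same places the NPAT ratio was 0.961 (0.880 to 1.05, 108 pairs), an interval that includes equal density. The other lists were below 1 there, with 0.889 (0.806 to 0.982) for CASP8AP2, 0.856 (0.782 to 0.937) for E2F1 and 0.824 (0.765 to 0.887) for HINFP, so the HINFP value was on the other side from its shares. A further pair of bins, picked after the values had been seen, lies on chromosomes that are known to hold other histone genes. The bin 145 to 150 Mb of chromosome 1 had a mean log2 ratio of -0.28 and was not called, and 10 to 15 Mb of chromosome 12 was called higher, with 340 and 1287 NPAT regions. No annotation of NCBI36 was used, so which genes these bins hold was not looked up.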

How the data were processed

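ChIP-Seq reads of NPAT, CASP8AP2, E2F1 and HINFP from U2OS and hTERT-RPE1 cells were mapped to NCBI36 (hg18) by the authors, who called regions in each library. The aligner and the caller are not given in the sources used here. The deposited lists give unscaled counts of ChIP and IgG sequences per region, the signal height at the summit (at least 8 reads), a fold change, which is a ratio, and a p-value without adjustment. Library totals are not in the lists, so each bin was scaled to the autosomal total of its list.

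Regions with (ChIP + 1)/(IgG + 1) from 0.5 to 3 were assigned by their midpoint to 5 Mb bins. Bins with a mean under 100 regions over the 4 lists were left out. Samples were grouped by their titles, and the lists of U2OS and hTERT-RPE1 cells were compared per factor, with no test, since each factor and line had 1 library. Ratios of shares have exact (Clopper-Pearson) 95% intervals and shares of peaks Wilson intervals. Steps were placed by the split of region counts, in 100 kb steps within 7.5 Mb of an edge, with the highest binomial likelihood. The code that makes the calls was tested on simulated data. Analyses ran in Python 3.11.15 with scipy 1.17.1, numpy 2.4.6, pandas 2.3.3 and, for plots, matplotlib 3.10.9.

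The members and rules were chosen with earlier results of these data known. Arms with the 5 highest and 5 lowest NPAT IgG ratios, the longest runs of at least 3 called bins, the 5 highest and 5 lowest bins, the bin of the histone stretch on chromosome 6 and 10q were named by rule. The comparison at places listed in both lines (without regions of 200 or more IgG sequences), the steps on chromosomes 10 and 18 and the bins of chromosomes 1 and 12 were added after the values had been seen. The alternatives were other folds, windows, heights, list sizes, scalings, filters on bins, bin sizes, lists and measures. A planned look at bins of single genes was not made, since no annotation or genome of NCBI36 was used. Sex chromosomes were not analysed here.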

Additional observations from a re-analysis of the deposited data

Results flagged for a closer look

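Background on sequence outside the autosomes was left out of every comparison and was above the limit that a count of 0 allows. In the NPAT lists, regions at a ratio of 0.5 to 3 on the mitochondrial genome held 15599 IgG sequences in hTERT-RPE1 and 28580 in U2OS cells. Per 1000 autosomal IgG sequences these are 12.4 and 12.1. Contigs not placed on a chromosome held 11803 IgG sequences in the NPAT list of hTERT-RPE1 cells and 7638 in that of U2OS cells, or 9.42 and 3.23 per 1000 autosomal IgG sequences. Much of each sum came from a single contig, whose highest region held 7847 IgG sequences in hTERT-RPE1 and 6165 in U2OS cells.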

How the results depend on the processing

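Of the alternatives tried, none turned a called bin to the other direction. Bins higher in U2OS cells numbered 106, and 58 with a 2-fold threshold. Bins lower in U2OS cells numbered 155. They fell to 23 with a height of at least 10, which left 229 bins to count, and to 88 with a mean of at least 200 regions per bin, which drops sparse bins. In these settings 95 of 229 and 104 of 442 bins were higher, so the excess of lower over higher bins was not kept. The other alternatives gave 87 to 139 higher and 119 to 196 lower bins. The 10 named arms kept their side of 1 in all 130 values from 13 alternatives, from at least 1.083 for the 5 high arms to at most 0.9242 for the 5 low arms. The size was not kept, and the ratio of 18p ran from 1.227 to 8.88. The arms were chosen by their NPAT IgG ratio and most alternatives used the same NPAT lists, so a kept side is weak evidence. The measures per kb were among the alternatives for NPAT only. Added after the data were seen, they kept the side of all 10 arms in the CASP8AP2 and E2F1 lists. In the HINFP lists, the IgG sequences per covered kb put 8 of the 10 arms on the other side of 1 (18p 0.699, 20q 0.908, chromosome 17 after 42.1 Mb 0.919, 13q 1.017, 19p 1.2002, 10q 1.395, chromosome 6 before 28.6 Mb 1.805 and 18q 2.03), and the ratio at the same places put 2 there (0.813 for chromosome 17 after 42.1 Mb and 1.02 for 10q); the cause was not tested. The Spearman correlation between the NPAT and CASP8AP2 ratios, 0.974, moved to 0.9528 with a height of at least 10, 0.9684 with bins of at least 1 region and 0.9682 with bins of at least 200. No paired analysis was possible because the labels carry no replicate numbers to pair and each factor and line has 1 library. The lines can be matched by factor, and the spread over the 4 factors, which differ in antibody and share IgG libraries, is given with the arms as a spread and not as an error. Without replicate libraries, differences in DNA copies, chromatin, fragmentation or handling between the lines cannot be told apart, and a bin with few regions in U2OS cells bounds the ratio only by its counting interval.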

Other observations

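Some bins were dense or sparse in both lines. More than 1.5 times the mean number of regions was found in all 4 lists in 9 bins, against 85 bins for both lists of U2OS cells and 29 for both lists of hTERT-RPE1 cells. Of the 9, 3 lay on chromosome 10 and 2 on chromosome 22. The bin 25 to 30 Mb of chromosome 22 had 1.69 times the mean in the NPAT list of hTERT-RPE1 cells and 3.996 times in that of U2OS cells, and 40 to 45 Mb of chromosome 1 had 1.53 and 2.70 times. Less than 0.667 times the mean was found in all 4 lists in 53 bins, against 191 for U2OS cells and 81 for hTERT-RPE1 cells. Among them, 60 to 65 Mb of chromosome 6 had 0.279 times the mean in the NPAT list of hTERT-RPE1 cells and 0.582 times in that of U2OS cells. It was therefore called higher in U2OS cells while it was sparse in both lines.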
